A study of Mus musculus with 3 samples.

Results

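The genes described here are 10 G protein-coupled receptors of lipids, oxysterols, protons and peptides, or without a settled ligand, in mouse regulatory T cells. They were taken by name from gene tables that list 55536 annotated genes, and each was found once: Ptger2, Ptger4, Gpr183, Gpr174, Gpr18, Gpr65, Gpr132, Gpr83, Gpr171 and Gpr15. PolyA-selected RNA was sequenced from regulatory T cells labelled as having gone through inflammation, which form 1 group of 3 libraries. The libraries are technical replicates 1, 2 and 3 of 1 biological replicate, from 1 male donor of 16 weeks, and are called library 1, library 2 and library 3. The strain is given as Foxp3GFP-DTRCD4CreERT2R26tdTomato. The name joins a GFP and diphtheria toxin receptor at Foxp3, an inducible Cre driven by CD4 and a tdTomato reporter. No uninflamed group was analysed here, the labels used name no agent or inflamed tissue, and the cells' origin is given as the whole organism. Each SD is the spread of these 3 libraries (n = 3) and does not measure variation between animals.

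G protein-coupled receptors span the cell membrane and pass an outside signal to a heterotrimeric G protein. The prostaglandin E2 receptors encoded by Ptger2 and Ptger4 and the proton sensor encoded by Gpr65 couple to the stimulatory alpha subunit, which raises cAMP. Gpr183 encodes the receptor for oxysterols, oxidised cholesterols that position lymphocytes in lymphoid tissue, and Gpr174 a receptor for lysophosphatidylserine. Gpr15 encodes a homing receptor of the large intestine, and Gpr83 is known as a gene that regulatory T cells express above other CD4 T cells.

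Depth was 17535472 to 20996194 expected counts per library, where an expected count is an estimated number of reads per gene. On a transcript of 1 kilobase, 3 counts equal 0.23 to 0.251 TPM (a transcript level scaled for length and depth). Of the marker genes, 4 of 4 for regulatory T cells and 5 of 5 for T cells were at 1 TPM or more in each library, and Foxp3 stood at 77.64, 86.23 and 59.18 TPM. B cell markers (5 of 7 at that limit) summed to 88.36 to 109.18 TPM and macrophage and monocyte markers (4 of 6) to 32.88 to 44.97 TPM, against 6168.13 to 7194.34 TPM for T cell markers. CD8 T cell markers (1 of 2) summed to 16.69 to 22.33 TPM, NK cell markers (1 of 4) to 4.46 to 8.51 TPM. Dendritic cell markers (1 of 5) summed to 2.45 to 3.25 TPM. The 4 erythroid markers summed to 1090.82 to 1740.5 TPM, and 0 of 4 granulocyte and mast cell markers reached the limit. No marker of the B cell or macrophage lists was at 0 in all libraries, and B cells and macrophages also express several of these receptors. The part of any of these other cell types in the receptor levels was not tested. Fewer cells of a type cannot be told apart from less RNA per cell in such bulk libraries.

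A pair of sequence features runs through the results. The first is local GC content, which moved with the difference between library 3 and the others. The most GC-rich 200-base window of the coding part is shown for Ptger4, whose level fell most in library 3, for Gpr15, which fell too, and for Gpr183, the receptor with the highest level. Each is read 5′ to 3′ on the gene's own strand from GENCODE M21 transcripts (mm10), at chr15:5242329-5242528, chr16:58717790-58717989 and chr14:121954480-121954679, and capitals mark runs of 4 or more G or C bases.
Ptger4: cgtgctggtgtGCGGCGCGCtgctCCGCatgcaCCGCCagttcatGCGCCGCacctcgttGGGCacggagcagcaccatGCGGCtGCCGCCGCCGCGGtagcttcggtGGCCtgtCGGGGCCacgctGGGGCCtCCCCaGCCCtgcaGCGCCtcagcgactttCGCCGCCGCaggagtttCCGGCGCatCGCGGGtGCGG
Gpr15: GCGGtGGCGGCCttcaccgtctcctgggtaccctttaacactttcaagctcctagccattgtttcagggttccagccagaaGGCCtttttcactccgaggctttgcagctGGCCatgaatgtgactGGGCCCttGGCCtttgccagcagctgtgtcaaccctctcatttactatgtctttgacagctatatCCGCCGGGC
Gpr183: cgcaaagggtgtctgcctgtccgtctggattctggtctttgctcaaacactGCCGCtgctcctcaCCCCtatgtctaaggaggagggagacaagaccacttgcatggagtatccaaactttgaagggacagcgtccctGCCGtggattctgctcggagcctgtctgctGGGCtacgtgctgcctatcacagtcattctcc
The Ptger4 window was 74% GC, with 17 such runs that cover 103 bases. The Gpr15 window was 55% GC, with 7 runs over 38 bases, and the Gpr183 window was 56% GC, with 4 runs over 17 bases. The measure set against library 3 below uses the whole transcript. By it, the Gpr183 window was another one, of 61% GC, while those of Ptger4 and Gpr15 were the windows shown.

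The other feature is an exon that separates the coding transcripts of Gpr83. It is the exon at chr9:14864772-14864897 on the plus strand, 126 bases or 42 codons long, which transcript Gpr83-201 carries and transcript Gpr83-202 skips without a change of reading frame.
Gpr83 exon: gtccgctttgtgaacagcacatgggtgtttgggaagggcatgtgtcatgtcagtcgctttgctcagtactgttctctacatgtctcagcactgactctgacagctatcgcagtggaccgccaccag

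All 10 receptors were at 1 TPM or more in each library, against 47.38% of the 22028 protein-coding genes. The median of their 10 mean levels was 57.6 TPM, beside 25.87 TPM for the protein-coding genes detected by that limit, and 5 of the 10 stood above 50 TPM in every library. The genes were picked as receptors of interest, so these shares describe the set only. Summed over the 10, the level was 650.63, 580.52 and 628.81 TPM.

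**Figure D1:**
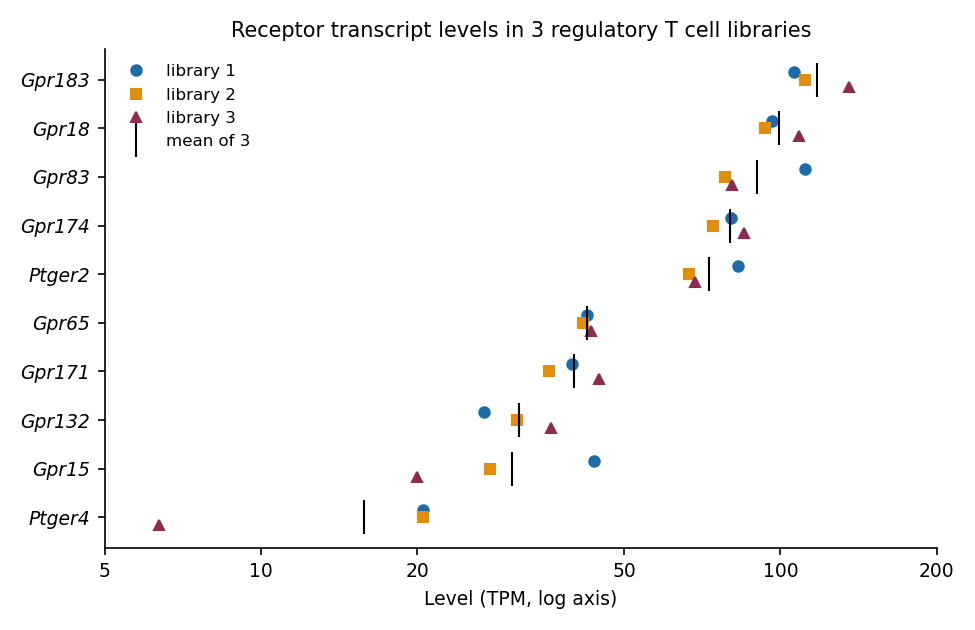
Level of each receptor gene in TPM on a log axis, with 1 point per library and a bar at the mean of 3. Gpr183 is highest at 118 TPM on average and Ptger4 lowest at 15.8 TPM, and the points of Ptger4 and Gpr15 spread furthest.

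Of the prostaglandin E2 receptors, Ptger2 was the more abundant. Ptger2 (chr14:44988195-45003820, plus strand) had 82.94, 66.53 and 68.62 TPM (72.7 ± 8.93 TPM, mean ± SD, n = 3). Ptger4 (chr15:5206661-5244187, minus strand) had 20.49, 20.51 and 6.36 TPM (15.8 ± 8.16 TPM). Every Ptger2 value lay above every Ptger4 value. The log2 ratio of Ptger2 to Ptger4, with 1 TPM added to each, was 2.29 ± 0.84, and it was positive in 3 of 3 libraries. As plain TPM the ratio was 4.05, 3.24 and 10.8, so library 3 accounts for its widest value. Not all Ptger2 signal came from the coding transcript: Ptger2-201 alone was at 37.9, 28.7 and 34.5 TPM, which is 1.85, 1.40 and 5.42 times the Ptger4 level.

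The oxysterol receptor gene Gpr183 (chr14:121952551-121965195, minus strand) had the highest level of the 10, at 106.23, 111.65 and 135.45 TPM (118 ± 15.5 TPM). It ranked 1434 among protein-coding genes. The 3 protein-coding genes closest to it over the 3 libraries, by the distance of log2(TPM + 1), were Mcts1 (0.0379), Nsmce1 (0.0386) and Ak6 (0.0502), where the distance is in log2 units. With values in only 3 technical replicates, this says that their levels were alike and no more.

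The lysophosphatidylserine receptor gene Gpr174 (chrX:107255878-107296769, plus strand) stood at 80.43, 74.11 and 84.92 TPM (79.8 ± 5.43 TPM). Gpr18 (chr14:121911253-121915781, minus strand), whose ligand is debated, stood at 96.43, 93.28 and 108.46 TPM (99.4 ± 8.01 TPM). Gpr18 lies 36.8 kb from Gpr183 on the same strand, and both lie inside Ubac2, a gene on the other strand at 164 ± 4.17 TPM with which they share 0 exonic bases. Gpr183 exceeded Gpr18 in 3 of 3 libraries by a log2 ratio of 0.24 ± 0.09. The levels of both receptors were highest in library 3.

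The proton sensor gene Gpr65 (chr12:98268635-98276644, plus strand) was the steadiest of the 10, at 42.38, 41.66 and 43.27 TPM (42.4 ± 0.81 TPM). Gpr132 (chr12:112850873-112868228, minus strand), a relative linked to protons, oxidised fatty acids and lysophospholipids, stood at 26.87, 31.12 and 36.24 TPM (31.4 ± 4.69 TPM). Gpr65 exceeded Gpr132 in 3 of 3 libraries, by a log2 ratio of 0.43 ± 0.20, which was not called in counts unscaled for length (0.19 ± 0.19 with M21, 0.21 ± 0.23 with M4). Gpr4, another proton sensor gene, stood at 0.08, 0.32 and 0.29 TPM.

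Gpr83 (chr9:14860210-14870789, plus strand), a receptor for which a proSAAS-derived peptide has been proposed as ligand, stood at 111.49, 78.22 and 80.82 TPM (90.2 ± 18.5 TPM). Library 1 was the high one, and libraries 2 and 3 lay close together. Gpr171 (chr3:59096448-59101821, minus strand), for which another proSAAS peptide has been proposed, stood at 39.69, 35.80 and 44.73 TPM (40.1 ± 4.48 TPM). The homing receptor gene Gpr15 (chr16:58717433-58719070, minus strand) stood at 43.68, 27.64 and 19.94 TPM (30.4 ± 12.1 TPM), and no library lay near another. The log2 ratio of Gpr83 was 1.59 ± 0.33 to Gpr15 and 1.14 ± 0.32 to Gpr171, positive in 3 of 3 libraries each.

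The order of mean levels was Gpr183, Gpr18, Gpr83, Gpr174, Ptger2, Gpr65, Gpr171, Gpr132, Gpr15 and Ptger4. A pair was called different where the log2 ratio had 1 sign in all libraries and its mean exceeded 2 SD, which is a rule and not a test. Of the 9 pairs of neighbours, 2 were called: Gpr183 over Gpr18, and Ptger2 over Gpr65 by 0.76 ± 0.17. The other 7 pairs of neighbours did not differ beyond their spread, so the order within Gpr18, Gpr83, Gpr174 and Ptger2, and from Gpr65 down to Ptger4, is not resolved step by step. Of the 14 pairs compared in all, 7 were called. Without library 2, Gpr183 over Gpr18 (0.23 ± 0.13) and Gpr65 over Gpr132 (0.44 ± 0.27) were no longer called, while Gpr171 over Gpr132 and Gpr15 over Ptger4 were. Without library 1, Gpr18 over Gpr83, Gpr174 over Ptger2 and Gpr171 over Gpr132 were called.

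Of the 10 genes, 4 had 1 annotated transcript and 6 had several, 23 transcripts in all. The share of a transcript is its percent of the gene's TPM, as the authors' tables give it. Gpr183-201 made 98.6% and Gpr132-201 99.2% of their genes on average. For Gpr83, Gpr83-202, which lacks the exon shown above and has 1143 coding bases, led with 65.37, 65.04 and 63.7%. Gpr83-201, which holds the exon and has 1269 coding bases, had 25.43, 25.98 and 28.69%. Counting these alone, the form with the exon made 29.2 ± 1.63% in the 3 libraries. This share is a model estimate. The transcripts, of 3586 bases with the exon and 2937 without it, also differ outside the exon, and reads across the exon's ends were not counted. Gpr83-203, a retained-intron transcript, had 8.60% on average.

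For Ptger2 the retained-intron transcript Ptger2-202 led with 54.33, 56.81 and 49.76%, and the coding transcript Ptger2-201 had 45.67, 43.19 and 50.24%. By expected counts the order turned, with 45.3% for Ptger2-202. For Gpr174, Gpr174-205, a processed transcript of 455 bases, had 35.33, 35.67 and 36.06% of TPM, and the coding transcript Gpr174-203 had 36.75, 31.57 and 34.6%, so their order differed between libraries. By expected counts Gpr174-205 held 4.85% and Gpr174-203 58.1% on average. The coding transcripts of Gpr174 together held 63.3 ± 1.16% of its TPM and 94.95 ± 0.31% of its expected counts.

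Ptger4 was the receptor whose transcript shares differed most between libraries. Ptger4-201, with 1539 coding bases, had 60.89, 54.41 and 93.92%, and Ptger4-202, with 1464 coding bases, had 38.13, 42.94 and 0%. The estimated counts of Ptger4-202 were 332, 344 and 0. As a model estimate, 0 does not show that the transcript was absent. Ptger4-202 holds 63 bases at the end of the first exon (chr15:5243620-5243682, 61.9% GC) that Ptger4-201 lacks. Libraries 1 and 2 were alike and library 3 stood apart, with 247 expected counts for the whole gene against 864 in library 1.

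**Figure D2:**
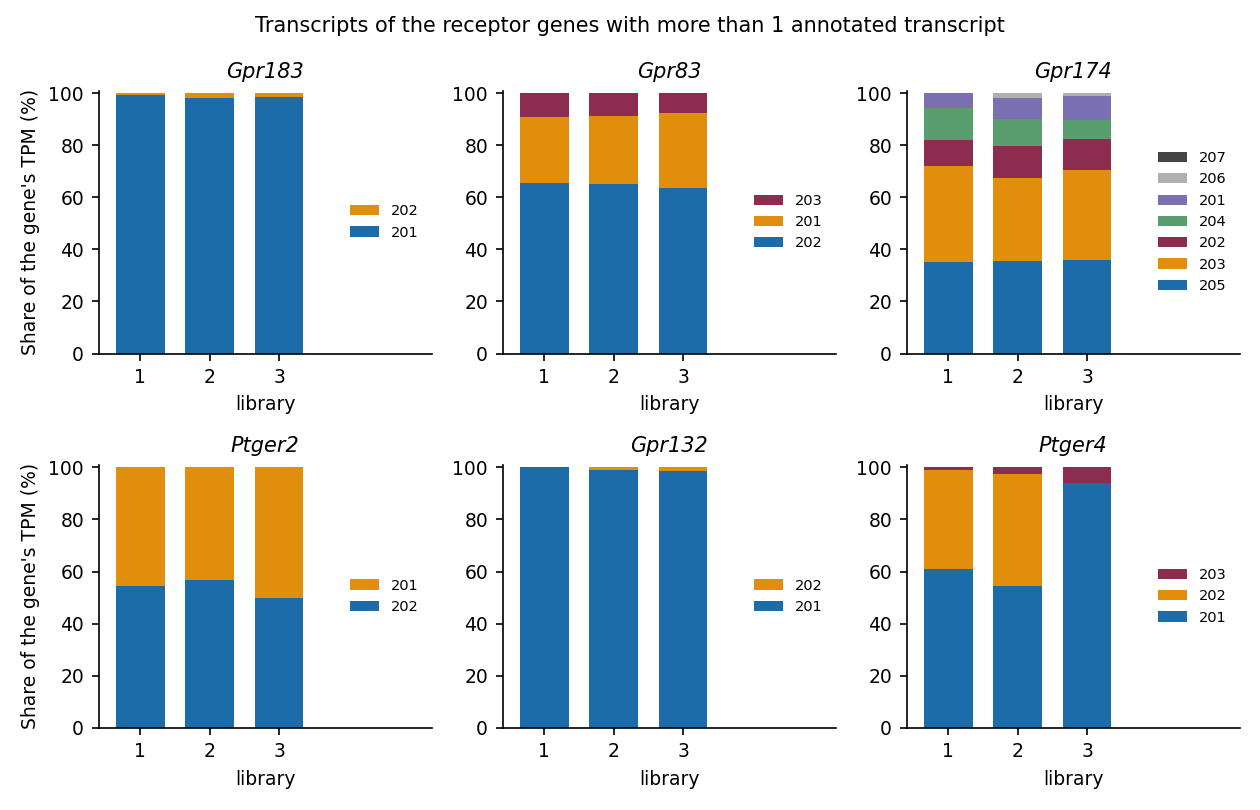
Stacked bars give each annotated transcript's share of its gene's TPM in percent, by library, for the 6 receptor genes with several transcripts; numbers in the legends are transcript suffixes. The Gpr83-202 share lies between 63.7 and 65.37% in all 3 libraries. The estimated Ptger4-202 share falls from 38.13 and 42.94% to 0% in library 3, where the gene had 247 expected counts.

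The libraries were compared with each other by a chi-square test of the rounded expected counts against sampling noise, with edgeR's TMM library sizes, 2 degrees of freedom and Benjamini-Hochberg adjustment over the 14877 genes that averaged 10 counts or more. In this test 9 of the 10 receptors passed an adjusted p of 0.05, all but Gpr65, where 63.9% of all tested genes passed. With only genes that averaged 50 counts or more, 9 receptors and 76.0% of the genes passed. The test asks only whether technical replicates differ by more than counting error, and it compares no conditions. The median log2 span from the lowest to the highest library was 0.35 for the 10 receptors and 0.47 for all tested genes. Beyond counting error the coefficient of variation over all tested genes was 27.8%.

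Library 3 differed from libraries 1 and 2 together in both directions. Of the 10 receptors, 4 passed and were lower in library 3 than in libraries 1 and 2 together (34.2% of all tested genes), and 5 passed and were higher (29.6% of all tested genes). Here and below, lower and higher give only the sign of that ratio. A gene that passed can differ between libraries 1 and 2, with library 3 between them. Ptger4 fell by 1.66 on the log2 scale (exact 95% interval -1.86 to -1.47, counting error only), which is 3.17-fold lower, with an adjusted p of 4.48e-69 by the chi-square test with edgeR scaling. In the M4 gene table, scaled for total count, Ptger4 fell by 2.28 on the log2 scale. Gpr15 was 1.78-fold lower, at a log2 ratio of -0.83 (-0.998 to -0.666), with an adjusted p of 9.62e-38 by the same test with edgeR scaling. Ptger4 was thereby the only receptor more than 2-fold lower in library 3, as were 13.4% of all tested genes. Gpr83 and Ptger2 also passed, at -0.22 and -0.08, but there library 1 was the high one, and the sign turned in the M4 gene table. Without library 1, neither passed (adjusted p = 0.308 and 0.0997 with edgeR scaling), while 51.4% of all genes tested there did.

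The receptors that passed and were higher in library 3 moved less than Ptger4 and Gpr15. Gpr132 and Gpr183 both had a log2 ratio of 0.34, Gpr171 of 0.26, Gpr18 of 0.21 and Gpr174 of 0.16. Gpr65 had a ratio of 0.06 (exact 95% interval -0.04 to 0.17), with an adjusted p of 0.547 by the chi-square test with edgeR scaling. In a comparison of libraries 1 and 2 alone, Ptger4 (adjusted p = 0.677), Gpr18 (0.919) and Gpr171 (0.19) did not pass with edgeR scaling, and 30.2% of all genes tested there did. With a GC trend removed, Gpr18 did not pass (adjusted p = 0.0946 with edgeR scaling, 58.6% of all genes passed). The sign of Gpr174 turned there, with GC taken from Gpr174-205, which held 4.85% of that gene's expected counts. With plain total counts as library sizes, all 10 receptors passed, Gpr65 at an adjusted p of 0.0304 in place of edgeR's TMM scaling, as did 67.7% of all genes. With TMM sizes over all annotated genes, 9 receptors and 63.0% of all genes passed.

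The ratio of library 3 moved with local GC, taken from the most GC-rich stretch of 200 bases in a gene's most abundant transcript. Across 14867 tested genes Spearman's rho was -0.472, a description across genes, which are not independent replicates. The median log2 ratio was 0.24 below 50% GC, 0.15 from 50 to 60%, 0.03 from 60 to 70%, -0.80 from 70 to 75% and -0.62 from 75% up, so it did not fall further in the most GC-rich genes. Of the receptors, Ptger4 had the most GC-rich window (74%, in the coding part shown above), and 15.1% of tested genes reached that value. Gpr83 followed with 69%, in the non-coding start of its transcript, then Gpr132 with 65% and Ptger2 with 63.5%. The Ptger2 window is that of the retained-intron transcript Ptger2-202, which held 45.3% of the gene's expected counts. The Gpr174 window (43.5%) is that of Gpr174-205, which held 4.85%. The GC of the coding transcripts of Ptger2 and Gpr174 was not measured. With a smooth GC trend taken out of each library, Ptger4 was still lower in library 3, by 0.88 on the log2 scale.

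Gpr132 and Gpr15 did not follow this pattern. Gpr132, with a window of 65% GC, was higher in library 3 by 0.34, and by 0.32 with the GC trend taken out. The median for genes from 60 to 70% GC was 0.03. The Gpr15 window was 55% GC, below the median of 63.5% for tested genes, and its log2 ratio was -0.98 with the GC trend taken out. Gpr15 overlaps Cpox on the other strand by 204 exonic bases, and Cpox stood at 45.28, 34.19 and 25.6 TPM, the same order of libraries as Gpr15. Whether counting used the strand is not known here, and the part of Cpox reads in the Gpr15 level was not tested. In the second gene table, made with GENCODE M4, Gpr15 had 637, 403 and 304 reads, again lowest in library 3. Scaled for total count, its log2 ratio there was -0.51, against -0.83 with M21 counts.

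**Figure D3:**
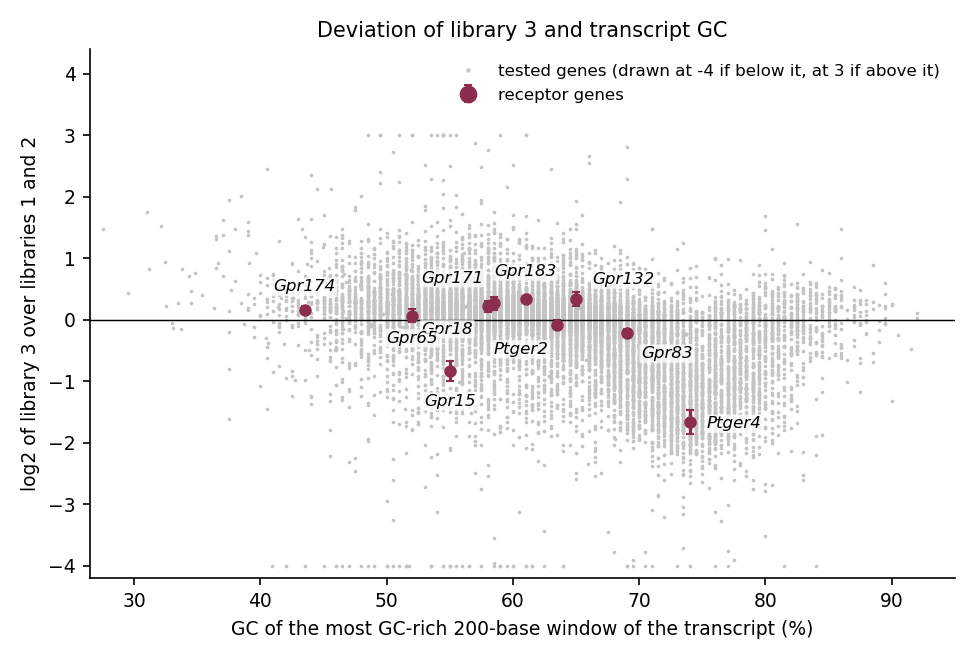
Log2 ratio of library 3 to libraries 1 and 2 (scaled counts) against the GC percent of the most GC-rich 200-base transcript window, with tested genes in grey and the 10 receptors in red with exact 95% intervals for counting error. Ptger4 lies at 74% GC and -1.66, and Gpr15 lies at -0.83 with a window of 55% GC.

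Other receptors share exonic bases with genes on the other strand too. Ptger2 shares 246 bases with the antisense gene Gm17173 (55.5 ± 0.96 TPM) and 144 with Gm49364 (15.5 ± 1.53 TPM), so its level is uncertain by an amount that was not tested. Ptger4 shares 82 bases with Ttc33 (49.0 ± 3.03 TPM) and 1015 with the pseudogene Gm15937 (0.32 ± 0.16 TPM). Gpr65 shares 511 bases with Gm47566, which was listed at 0 in all libraries. Gpr171 lies inside Med12l (0.57 ± 0.15 TPM) and shares 0 exonic bases with it.

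On the ligand side, the prostaglandin E2 receptors were accompanied by few other prostanoid receptors. Of 7, 2 were at 1 TPM or more in each library. The thromboxane receptor gene Tbxa2r stood at 55.61, 51.22 and 15.76 TPM and the prostacyclin receptor gene Ptgir at 6.84, 4.43 and 3.91 TPM. Library 3 was the lowest for both, as it was for Ptger4. Of the 7, 3 were tested, and those 3 passed and were lower in library 3, as did 34.2% of all tested genes. The remaining prostaglandin E2 receptor genes were low, with Ptger1 at 0.32, 0.74 and 0.23 TPM and Ptger3 at 0.07, 0.14 and 0.15 TPM. The prostaglandin D2 receptor gene Ptgdr2 was at 0.03, 0.13 and 0.1 TPM, and Ptgdr and the prostaglandin F receptor gene Ptgfr were listed at 0 throughout.

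Of 11 genes that make, move or clear prostaglandins, 5 were detected by the same limit. They were Ptges3 (60.3 ± 23.3 TPM), a co-chaperone also named as a prostaglandin E synthase, the exporter gene Abcc4 (12.9 ± 6.29 TPM), the prostaglandin D synthase gene Hpgds (7.02 ± 0.38 TPM), the degrading enzyme gene Hpgd (4.2 ± 0.96 TPM) and the cyclooxygenase gene Ptgs1 (2.57 ± 0.30 TPM). The inducible cyclooxygenase gene Ptgs2 was at 0, 0 and 0.04 TPM, and the synthase gene Ptges at 0, 0.21 and 0.21 TPM. Of the 5 oxysterol enzyme genes, Hsd3b7, which breaks down the Gpr183 ligand, was the only one detected in each library (3.70, 2.79 and 2.34 TPM). Cyp27a1 stood at 0.42 to 1.06 TPM, and Ch25h, Cyp7b1 and Cyp46a1 were listed at 0. The ligand gene Pcsk1n, which encodes proSAAS, was listed at 0, and 2610528A11Rik, which encodes the Gpr15 ligand, stood at 0.23, 0 and 0 TPM. Of the protein convertase genes, Furin had 3.99 ± 0.91 TPM, Pcsk1 1.19 ± 0.19 TPM and Pcsk2 at most 0.02 TPM.

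Of 16 further receptors for lysophospholipids and related lipids, 9 were detected in each library. The highest were P2ry10 (70.1 ± 8.55 TPM), a lysophosphatidylserine receptor like Gpr174, then Gpr34 (33.7 ± 4.39 TPM), Cysltr2 (26.4 ± 0.94 TPM), Lpar6 (23.7 ± 2.25 TPM), Cnr2 (18.04 ± 1.25 TPM) and Lpar5 (14.5 ± 7.94 TPM). The Gpr174 mean was above each of these means. In the test between libraries 8 of the 12 tested genes of this list passed, 5 lower and 3 higher in library 3, near the shares of all tested genes (63.9% passed, 34.2% lower and 29.6% higher).

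**Figure D4:**
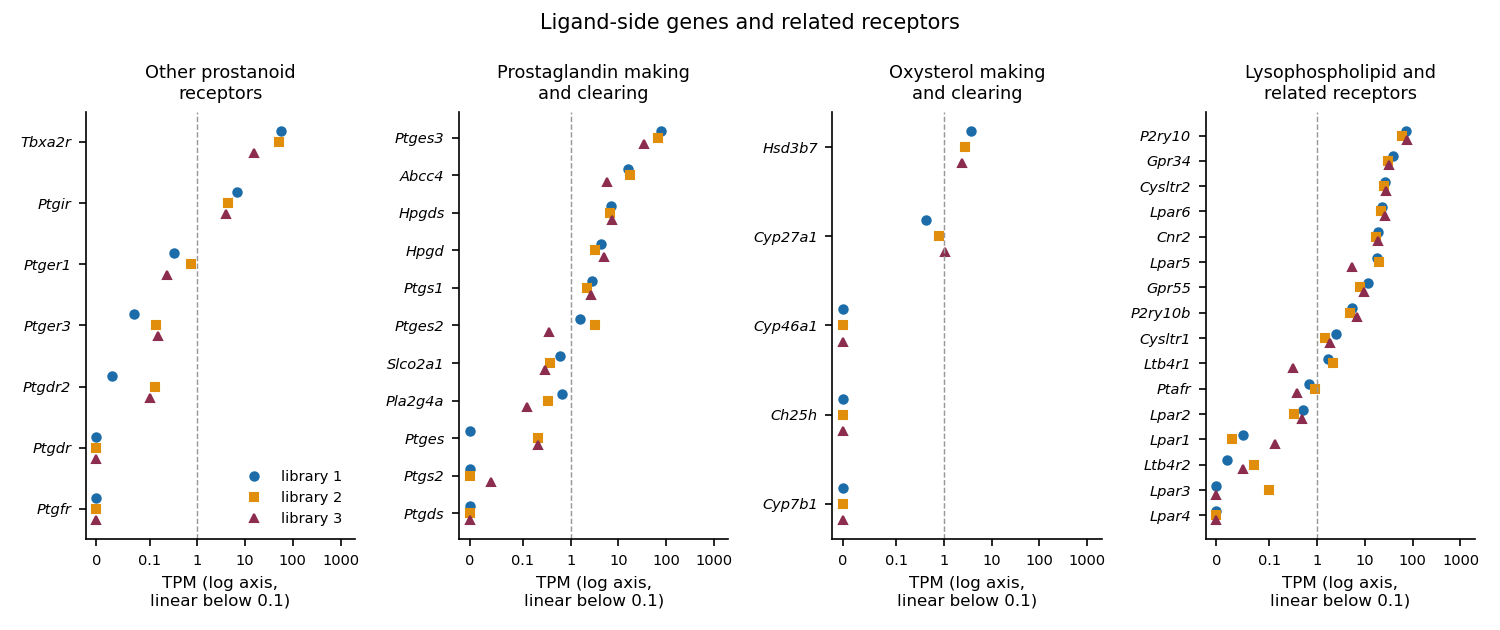
TPM by library for the other prostanoid receptors, the prostaglandin and oxysterol enzymes and the related lipid receptors, on an axis that is logarithmic above 0.1 and linear below; the dashed line marks 1 TPM. Tbxa2r and P2ry10 lead their lists, and 3 of the 5 oxysterol genes sit at 0.

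On the signal side, 9 of 12 G protein alpha subunit genes were detected in each library. The inhibitory subunit gene Gnai2 stood at 267.87, 260.35 and 71.03 TPM and Gnai3 at 195.54, 166.11 and 115.1 TPM. The stimulatory subunit gene Gnas, through which Ptger2, Ptger4 and Gpr65 signal, stood at 71.69, 72.93 and 60.68 TPM, close to the Ptger2 mean. Gna13 (46.9 ± 11.5 TPM), Gna15 (19.5 ± 9.82 TPM) and Gnaq (6.08 ± 0.25 TPM) followed. Of 9 alpha subunit genes tested, 6 passed, near the 63.9% of all tested genes that did, and the 6 were lower in library 3, where 34.2% of all tested genes passed and were lower.

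Of 19 genes that make or break down cAMP, 7 were detected in each library. The cyclase gene Adcy7 led at 164.77, 159.38 and 168.93 TPM, and the phosphodiesterase gene Pde4b followed at 69.98, 74.57 and 74.01 TPM. The next were Pde7a (6.92 ± 1.45 TPM), Pde3b (1.09, 3.39 and 7.18 TPM), Adcy3 (3.84 ± 0.51 TPM) and Pde4d (3.45 ± 0.30 TPM). Adcy7 and Pde4b thus lay within a narrow range in all libraries, unlike Gnai2 and Ptger4. Of the 14 tested, 8 passed, 3 lower and 5 higher in library 3, beside 63.9%, 34.2% and 29.6% of all tested genes.

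Of 14 cAMP effector genes 12 were detected, led by the protein kinase A subunit genes Prkar1a (392 ± 132 TPM) and Prkacb (161 ± 10.5 TPM), then Creb1 (81.3 ± 3.87 TPM), Crtc2 (72.5 ± 29.5 TPM), Crem (25.8 ± 6.09 TPM) and Atf1 (22.4 ± 7.35 TPM), which encode the transcription factors and a coactivator of the cAMP response. Of the 14, 9 passed between libraries, 6 lower and 3 higher in library 3, where 63.9% of all tested genes passed, 34.2% lower and 29.6% higher. Of 16 regulators of receptor signalling 14 were detected. Arhgef1, an exchange factor downstream of Gna13, stood at 782.01, 832.21 and 270.33 TPM. It was followed by Rgs1 (317 ± 26.5 TPM), Rgs10 (255 ± 23.2 TPM), Rgs19 (191 ± 6.12 TPM), Arrb2 (151 ± 27.1 TPM) and Rgs14 (132 ± 13.5 TPM), which speed G protein shut-off or, for Arrb2, take receptors off the surface. Of 15 regulators tested, 13 passed, 11 lower and 2 higher in library 3 than in libraries 1 and 2 together, against 63.9%, 34.2% and 29.6% of all tested genes. The 2 that were higher had library 3 between the other libraries. So had Rgs1, counted as lower, at 346.68, 295.17 and 310.09 TPM.

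**Figure D5:**
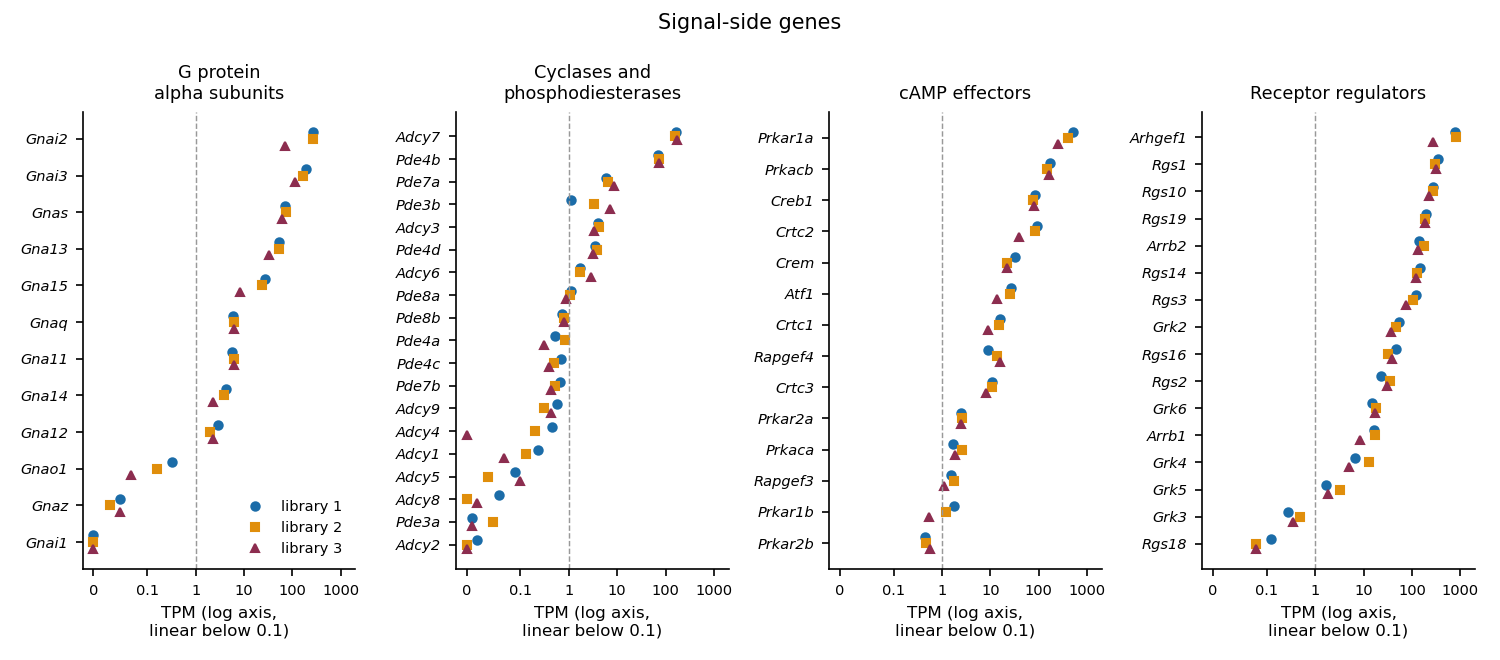
TPM by library for G protein alpha subunits, cAMP enzymes, cAMP effectors and receptor regulators, on an axis that is logarithmic above 0.1 and linear below; the dashed line marks 1 TPM. Gnai2, Prkar1a and Arhgef1 have their lowest point in library 3, while the Adcy7 points lie together.

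RefSeq's promoter table (GRCm38.p6) held 9 of the 10 receptors, with Gpr171 missing. In the 250 bases before the start, Ptger4 and Gpr83 had the most GC-rich sequence, 66.8% each, with 19 and 18 CpG dinucleotides. The Ptger2 window had 38% GC and 3 CpG, and the other 6 lay between 31.6% and 55.6%, beside a median of 52.4% and 6 CpG over 32851 promoters. The Gpr174 and Gpr132 windows lie inside the GENCODE genes and those of Gpr15 and Gpr183 overlap theirs in part, so they are not wholly upstream of the GENCODE starts. The cAMP response element TGACGTCA was in 0 of the 9 windows and in 1.55% of all promoters, and the forkhead motif TGTTTAC in 0 of 9 and 3.17%, on either strand. Only exact matches were searched, so 0 of 9 does not show that variants of these motifs are absent. CACCC, a core of KLF motifs, was in 5 of 9 (Gpr132, Gpr15, Gpr174, Gpr83 and Ptger4) and in 52.0% of all promoters.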

How the data were processed

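PolyA RNA was measured in 3 libraries of 1 group. Per the file headers and the text deposited with the files, the authors aligned reads to mm10 and made, with GENCODE M21, a gene and a transcript table per library with expected counts, TPM, FPKM and the percent of a gene's TPM from each transcript. A second deposited table holds whole-number counts per gene with GENCODE M4. No source used here gives the aligner, the counter or the use of strand. Libraries held 17535472 to 20996194 expected counts and 5056487 to 6339932 M4 counts, so intervals cover counting error only.

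Expected counts were rounded. R 4.3.3 with edgeR 4.0.16 gave TMM sizes over the genes that averaged 10 counts or more. Pearson's chi-square compared each gene's 3 counts with Poisson sampling at those sizes, adjusted by Benjamini-Hochberg over all tested genes. The TMM sizes were first computed over all annotated genes. They were changed to the tested genes after that count had been seen, to follow earlier processing of these data, and both counts are given below. The test was checked on simulated counts. Window GC came from GENCODE M21 transcripts, and the choice of this measure came from an earlier look at these data. Alternatives were DESeq2 1.42.0 size factors, other scalings and filters, the M4 table, FPKM, other limits and pseudocounts, a lowess GC trend (fraction 0.3) and leaving out each library.

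Receptors and gene lists were chosen with earlier results of these data known. The rule for names took all 10 receptors, up to 6 highest detected genes of each list, all genes of the prostanoid receptor, peptide ligand and proton-sensor lists, overlapping genes and the 3 genes nearest to the highest receptor; a few others at or near 0 were named after their values were seen. Of 149 list genes 148 were measured. The result of 1 list gene is not reported here.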

Additional observations from a re-analysis of the deposited data

How the results depend on the processing

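All 10 receptors were detected under every limit from 0.5 to 5 TPM, with FPKM, in the M4 table and without each library. The median of their levels was 70.2 TPM when TPM was rescaled over nuclear protein-coding genes. The median share of the leading transcript was 98.9% of TPM and 99.9% of expected counts. In this median the 4 genes with 1 annotated transcript are fixed at 100%. By expected counts the transcript leading in TPM held 4.85% for Gpr174 and 45.3% for Ptger2. Genes that differed between libraries numbered 9371 with TMM over all annotated genes, the version run first, against 9501. They numbered 6222 of 10964 tested in the M4 table, and 4489 to 8029 when 1 library was left out, with the lowest count without library 3. The receptors that passed were 9 under both TMM versions. Calls of 6 receptors changed under at least 1 of 11 alternatives, as given above, and those of Gpr132, Gpr15, Gpr174 and Gpr183 under none. The direction in library 3 turned for Gpr83 in the M4 table (0.076) and with the GC trend removed (0.081), for Gpr174 with the GC trend removed (-0.092), and for Ptger2 with total counts (0.0035) and in the M4 table (0.21). The cause of these changes was not tested. In M4 counts, scaled for depth but not for length, the log2 ratios of Ptger2 to Ptger4 (2.36 ± 1.39), Gpr65 to Gpr132 (0.21 ± 0.23) and Gpr174 to Gpr171 (0.08 ± 0.08) were not called. Ptger4 had 61 reads in library 3 of that table. No paired analysis was possible because the labels give 1 group.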
